A study of Mus musculus with 60 samples.

Results

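The transcripts described here are 200 mouse genes whose names consist of Gm and a high number. They match Gm37000 to Gm49999 by name and were listed in at least 1 of the deposited result tables, with Gm42418, Gm42870 and Gm43197 left out. Of 49315 genes counted, 1025 with such a name were listed in a result table, and after removal of the 3 the members were chosen by their mean CPM (raw counts scaled by the library total) over all 60 mice, of which the 200 highest were kept. The ranking used no contrast between groups, but a mean over all mice also counts the groups where a gene is high. A member can thus have been kept through such a group, which bears on the members that rose. For instance, Gm37347 had a mean of 2.89 CPM over the 60 mice. Its TMM-scaled group means were 0.841 and 0.972 CPM in Day 0 and Day 1 vehicle mice and 9.88 CPM after TBI. The requirement to be listed rested on result tables made for the authors' comparisons. The mean levels are given as a description. At the edge of the ranking, Gm37010 at rank 200 had a mean of 2.138 CPM and Gm44199 at rank 201 had 2.137 CPM, and the members reached 44.5 CPM with a median of 3.44.

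Whole blood was drawn into RNA-stabilizing tubes from male CD2F1 mice bought at 5 to 6 weeks of age, 6 in each of 10 groups, and every mouse was sampled once. BIO 300, an amorphous solid dispersion of the isoflavone genistein, was given by oral gavage every 12 h for 6 days at 50, 100 or 200 mg/kg, and control mice received its vehicle. Each dose and the vehicle had a group bled when 24 h had passed since dosing ended (Day 0) and a separate group bled at 48 h (Day 1). The remaining pair of groups, vehicle and 200 mg/kg, was exposed on Day 0 to 9.2 Gy of total body irradiation (TBI) from a 60Co source and bled on Day 1, and the other 8 groups were unirradiated. Total counts per mouse ranged from 15099415 to 45589415, of which 4488 to 52222 fell on the 200 transcripts, and every member had at least 1 count in each mouse outside the 100 and 200 mg/kg Day 1 groups. Red cell, platelet and leukocyte markers were all detected, and 10 libraries also held hepatocyte transcripts (at least 10 of 16 markers above 10 CPM). On library type the sources differ, since the labels name poly(A) selection and the methods a stranded kit for total RNA that removes ribosomal and globin transcripts. In bulk blood, fewer cells of a type and less RNA per cell cannot be told apart.

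Genes with such names are predicted loci that curators have annotated from sequence evidence and that have no established product. Most belong to the GENCODE class TEC, which holds clusters of unspliced sequence tags that await experimental evidence. Introns are removed from a precursor RNA in the nucleus and normally decay there, so RNA covering an intron comes from the precursor, from a retained intron or from a separate transcript within it. Where reads are counted over annotated exons, a read from an unspliced precursor that falls on such a locus is counted for the predicted gene and not for the gene around it. Mature red cells and platelets have no nucleus, whereas leukocytes have one.

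Of the 200 genes, 197 were found by identifier in GENCODE M21 on GRCm38. They comprised 142 TEC loci, 18 lincRNAs, 14 sense intronic RNAs, 11 antisense RNAs, 6 protein-coding genes, 3 processed pseudogenes and 3 processed transcripts. A single exon was annotated for 172 and more than 1 exon for 25. By position, 105 lay on the same strand as a protein-coding gene and within its introns, 12 overlapped an exon of such a gene on the same strand, 33 lay antisense to 1, and 47 overlapped none. Their median exonic length was 2631 bases, from 276 to 16543. Chromosomes 3, 1 and 7 held 41, 34 and 30 of them, which is 20.8%, 17.3% and 15.2% of the members, and the same chromosomes held 9.35%, 7.38% and 9.69% of all genes of this name pattern and 10.0%, 14.8% and 9.76% of all TEC loci in GENCODE M21.

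The 3′ ends of the members were compared with those of other annotated loci. Within the last 50 bases of the longest annotated transcript, AATAAA or ATTAAA, the usual polyadenylation hexamers, occurred on the transcript strand in 28.9% of 197 members. The share was 28.9% over all 3219 TEC genes of GENCODE M21, 41% over lincRNAs and 68.8% over protein-coding genes. The median GC content of the members was 42%, close to the 42.3% of all TEC loci and below the 48.7% of protein-coding genes. Of these loci, 109 of 197 shared no run of 50 bases with a transcript of a gene elsewhere, while 4 shared over 50% of such runs, namely Gm45403, Gm42047, Gm37009 and Gm47283, whose counts are therefore uncertain.

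The highest levels belonged to Gm38158, a processed pseudogene in an intron of the centrosomal gene Sdccag8 (chromosome 1, 176835724 to 176836062), with a mean of 44.5 CPM over the 60 mice. Of its runs of 50 bases, 17.9% also occurred in a transcript elsewhere. Gm37352, a TEC locus on chromosome 8 (84200869 to 84203049), and the lincRNA Gm37494 on chromosome 7 (39544402 to 39580589) followed at 38 and 30.7 CPM. Gm45223 and Gm45222 lie in introns of Picalm, which encodes a clathrin assembly protein, and had means of 19.2 and 18.4 CPM. The top 12 also held Gm44292 in an intron of the transcriptional repressor gene Mxd1, Gm38244, Gm43029 in an intron of the nuclear import receptor gene Tnpo3, Gm43672, Gm45884 and Gm37472.

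In unirradiated vehicle-treated mice the 200 transcripts took 0.0793%, 0.104% and 0.133% of all counts (lowest, median and highest of 6 mice) on Day 0 and 0.0929%, 0.137% and 0.155% on Day 1. On Day 1 the share was 0.0261%, 0.0335% and 0.036% at 100 mg/kg and 0.0271%, 0.0309% and 0.0396% at 200 mg/kg. All 12 mice of these dose groups lay below all mice of the other 8 groups. At 50 mg/kg the share was 0.138%, 0.175% and 0.207% on Day 0, above each Day 0 vehicle mouse, and 0.0601%, 0.109% and 0.119% on Day 1, overlapping the vehicle mice. Irradiated mice given vehicle had 0.068%, 0.115% and 0.161%, and those given 200 mg/kg BIO 300 had 0.0725%, 0.0908% and 0.169%. Both ranges overlapped the vehicle mice of either day.

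**Figure D1:**
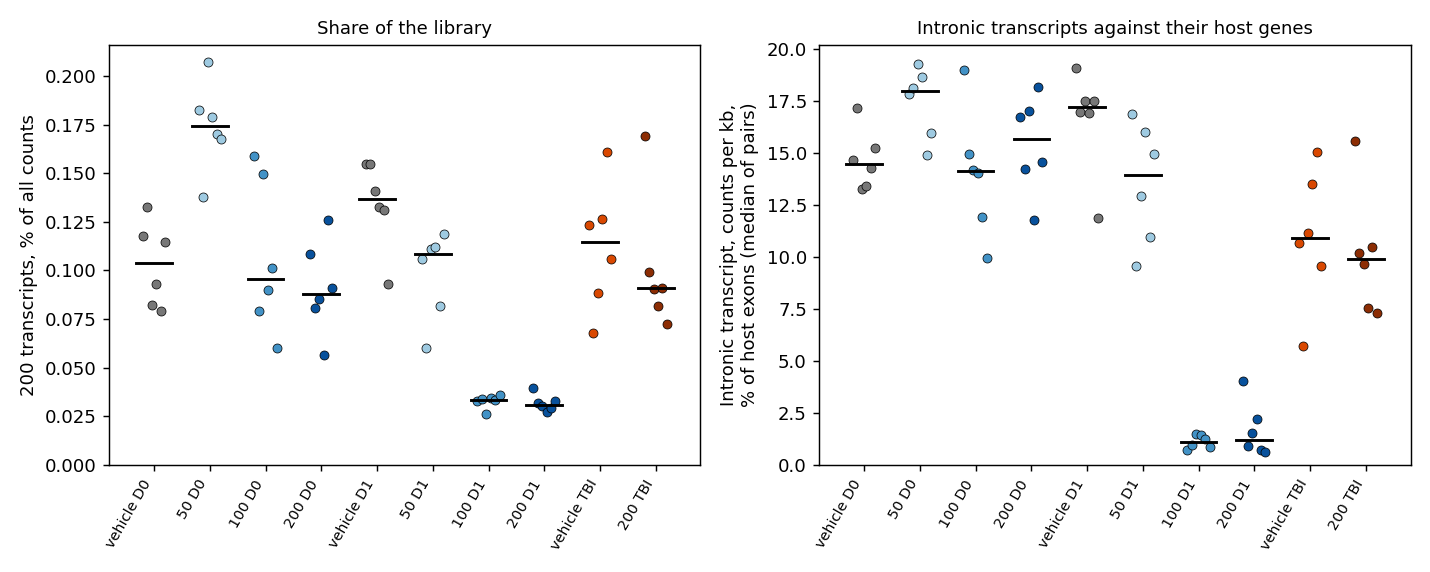
Left, the share of all counts on the 200 transcripts in each mouse (%), by group, where D0 and D1 are the sampling days, numbers are BIO 300 doses in mg/kg and bars are group medians (n = 6). Right, the median over 102 intronic transcripts of their counts per kb as a percent of the counts per kb of exons of the gene around them. The 100 and 200 mg/kg Day 1 mice lie lowest in both panels, with medians of 1.07% and 1.21% on the right against 17.2% in vehicle-treated mice.

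Whether BIO 300 dose and time changed the class was asked by comparing each dose with vehicle on the same day. Differences were tested by quasi-likelihood in edgeR with TMM factors, a normalization that scales each library by the bulk of its genes, and a member was called at a Benjamini-Hochberg adjusted p under 0.05 over all genes and an absolute log2 fold change over 1. On Day 1, 161 of the 200 members fell and 22 rose at 200 mg/kg. Over all 23513 genes tested, 47.8% were called, 30.5% lower and 17.3% higher. The median log2 fold change was -2.76 over the members and -0.48 over all genes tested. At 100 mg/kg on Day 1, 162 members fell and 22 rose, where 48.8% of all genes were called, 30.6% lower and 18.2% higher, and the medians were -3.13 and -0.38. Both doses were compared with the same vehicle mice.

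TMM factors were 1.15 to 1.63 in the Day 1 vehicle mice and 0.415 to 0.646 in the 200 mg/kg Day 1 mice. When libraries were scaled by their totals instead, the median of all genes at 200 mg/kg moved to -1.96 and that of the members to -4.23, a shift that the scaling applies to nearly all genes alike. All 161 members called lower were also called lower on that scale, on which 65.5% of all genes were lower, and 6 of the 22 called higher were still called higher. Gm45222, Gm42743, Gm44250 and Gm37009 changed sign.

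Cell type markers moved in the same comparison. At 200 mg/kg on Day 1 all 7 platelet markers were called higher and their summed level was 15110 to 26229 CPM, against 2039 to 4131 CPM in vehicle-treated mice. All 4 red cell markers were called higher. All 8 B cell and all 8 T cell markers were called lower, and the summed T cell level was 41 to 178 CPM against 329.8 to 414.1 CPM. None of the 8 neutrophil markers was called, with a median log2 fold change of 0.18. Of 6 monocyte markers 1 was called lower (median -0.57), but their summed level was not lower. It was 1330 to 1690 CPM (median 1523) against 919 to 1492 CPM (median 1052) in vehicle-treated mice. None of 6 NK cell markers was called (median 0.08). These marker calls and levels used TMM, while scaling by library totals lowered the fold changes of nearly all genes in this comparison. The part of these cell types in the fall of the class was not tested.

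**Figure D2:**
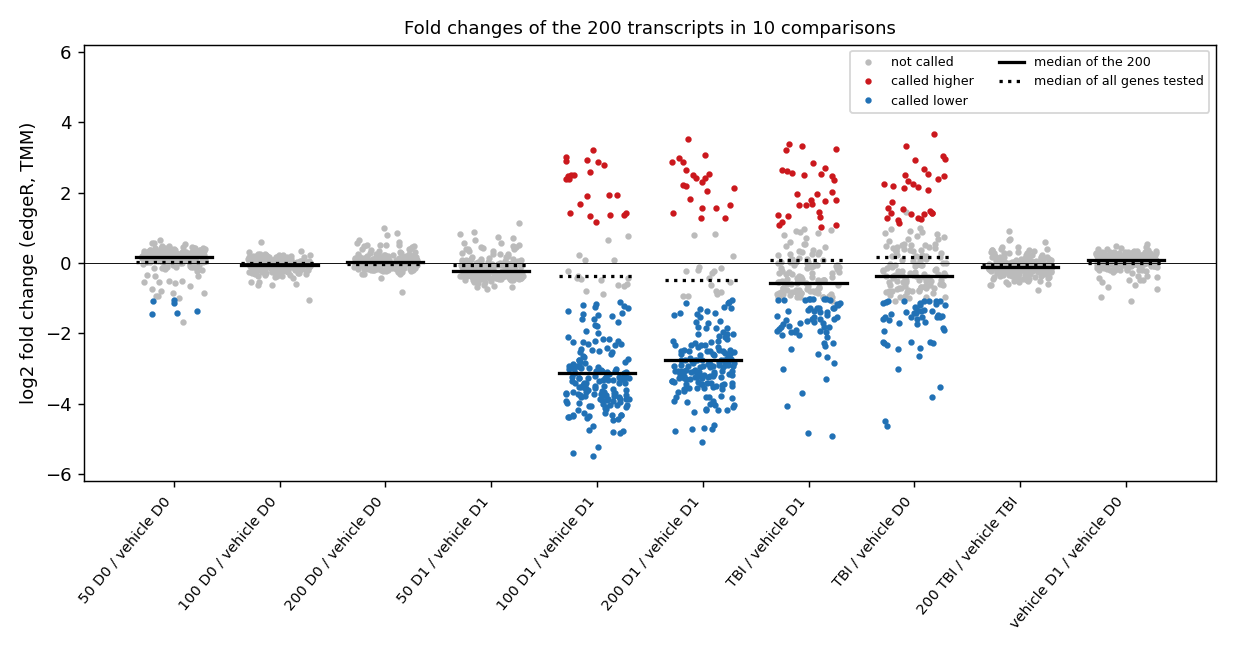
log2 fold changes (edgeR, TMM) of the 200 transcripts in 10 comparisons, with points coloured by call, solid lines at the median of the 200 and dotted lines at the median of all genes tested. The medians at 100 and 200 mg/kg on Day 1 are -3.13 and -2.76, and those after TBI are -0.57 and -0.37.

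The members with the largest falls at 200 mg/kg on Day 1 were at or near 0 in every treated mouse. Gm37266, a TEC locus on chromosome 17 (51850239 to 51852525) that overlaps no protein-coding gene, had 2.37, 3.19 and 4.79 CPM (lowest, median and highest, TMM-scaled over the 60 mice) in vehicle-treated mice and 0, 0.095 and 0.195 CPM at 200 mg/kg. The groups did not overlap, and the log2 fold change was -5.09 ± 0.472 (SE, n = 6 per group, edgeR adjusted p = 4.05e-07). Gm42611 in an intron of Ankrd13c, which encodes an ankyrin repeat protein, went from 2.16, 3.25 and 3.81 CPM to 0, 0.071 and 0.293 CPM. Its log2 fold change was -4.77 ± 0.511 (adjusted p = 1.76e-06), while Ankrd13c was at 0.70 ± 0.112 (-0.83 with library totals). Gm37052 in an intron of Rc3h1, which encodes the mRNA decay factor Roquin-1, had 2.79, 3.39 and 3.77 CPM in vehicle-treated mice and 0, 0.109 and 0.275 CPM at 200 mg/kg. Here again no treated mouse reached a vehicle mouse, with a log2 fold change of -4.72 ± 0.492 (adjusted p = 1.3e-06), while Rc3h1 rose by 1.01 on the log2 scale, a value that was -0.52 with library totals.

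At 100 mg/kg on Day 1 the lowest were Gm45266, Gm37943 and Gm37266. Gm45266 lies in an intron of the recycling endosome gene Rab11fip1 and had 2.01, 2.67 and 4.37 CPM with vehicle and 0, 0.046 and 0.181 CPM at 100 mg/kg, a log2 fold change of -5.49 ± 0.628 (edgeR adjusted p = 4.02e-06). Gm37943 lies in an intron of Ralgps2, which encodes an exchange factor for Ral GTPases. Its level was 4.05, 5.42 and 6.17 CPM with vehicle and 0, 0.127 and 0.36 CPM at 100 mg/kg, a log2 fold change of -5.41 ± 0.617 (adjusted p = 3.91e-06). For both, all treated mice lay below all vehicle mice. Of the members at ranks 2 and 3 by mean level, Gm37352 fell by 1.04 on the log2 scale at 200 mg/kg, and Gm37494, at -0.80 ± 0.0939, did not pass the fold threshold.

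The share called lower at 200 mg/kg on Day 1 differed between kinds of locus. Of the 105 members within introns on the same strand, 95 fell and 6 rose, with a median log2 fold change of -3.08. Of the 33 antisense members 27 fell and 4 rose, and of the 47 that overlap no protein-coding gene 30 fell and 9 rose. All 14 sense intronic RNAs and 124 of 142 TEC loci fell. The lincRNAs were divided, 8 falling and 7 rising of 18, and all 3 processed pseudogenes rose. Of the 172 members with 1 exon, 148 fell and 13 rose, whereas of the 25 with more than 1 exon, 11 fell and 9 rose. These are counts of calls with TMM, where 30.5% of all genes tested were lower and 17.3% higher. With library totals all 161 members called lower were still called lower, but only 6 of the 22 called higher were still called higher. The differences between kinds were not tested.

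**Figure D3:**
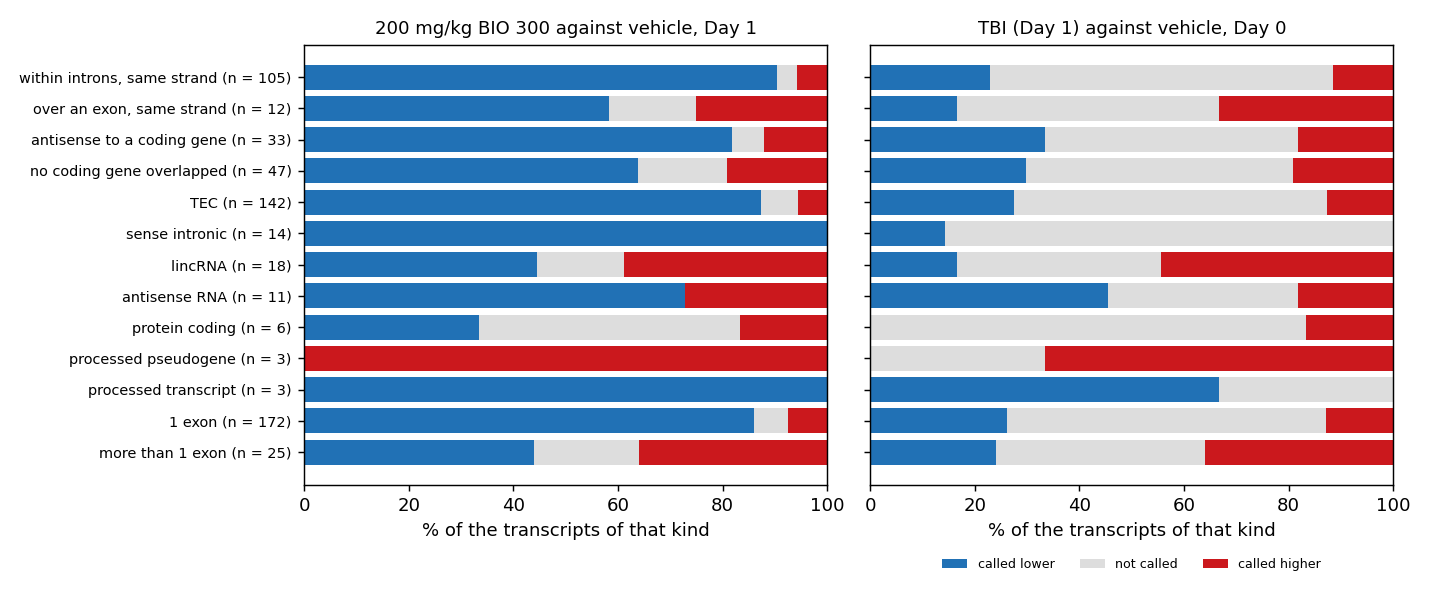
Percent of the transcripts of each kind called lower (blue), not called (grey) and called higher (red), by position, GENCODE class and number of exons, at 200 mg/kg on Day 1 (left) and after TBI against Day 0 vehicle (right). At 200 mg/kg 95 of 105 intronic members were called lower, against 11 of 25 members with more than 1 exon. Calls used TMM, with which 30.5% of all genes were lower at 200 mg/kg and 11.8% after TBI.

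The members were set beside other genes by name. Of the 815 lower-ranked listed genes of the same name pattern that could be tested at 200 mg/kg on Day 1, 76.3% were called lower and 5.28% higher, against 80.5% and 11% of the members. Among other Gm genes 43.9% were called lower, among Rik genes 44.7%, and among all remaining genes 22.6%. Listing in a result table was required of the members and the 815 genes, whereas the other Gm and Rik sets were defined by name alone. Within the members' own range of mean CPM, 23.7% of 9034 other genes were called lower, with a median log2 fold change of -0.33.

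The genes around the intronic members were then set beside them, which needs no scaling between libraries because both counts come from the same mouse. There were 102 members of 1 exon inside introns of 87 protein-coding genes on the same strand. In Day 1 vehicle mice their counts per kb were 11.9%, 17.2% and 19.1% (lowest, median and highest mouse, each the median of the 102 pairs) of the counts per kb of exons of the surrounding gene. The corresponding values were 0.707%, 1.07% and 1.49% at 100 mg/kg and 0.604%, 1.21% and 4.05% at 200 mg/kg. The highest of these was mouse 43, 1 of the 10 libraries with hepatocyte transcripts, and still lay below all mice of the other 8 groups. Mice given 50 mg/kg had 9.59%, 13.9% and 16.9% on Day 1, overlapping the vehicle mice. On Day 0 the medians ran from 14.1% to 18% over the 4 groups, and in irradiated mice they were 10.9% with vehicle and 9.91% with 200 mg/kg BIO 300.

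At 200 mg/kg on Day 1 the members fell relative to the genes around them. The median log2 fold change was -3.10 over the 102 members and 0.06 over the 87 surrounding genes, of which 9 fell and 21 rose. The direction of the surrounding genes depended on the scaling, since with library totals their median was -1.47, 53 fell and none rose. The member changed by over 1 log2 unit less than its surrounding gene in 95 of 102 pairs and by over 1 more in 3, and the median difference was -3.25, on which the scaling of libraries has little bearing because it moves both genes of a pair. With TMM, 93 intronic members fell, of which 82 lay in genes that were not called lower and 27 in genes that rose. Relative to the surrounding gene, Gm38158 in Sdccag8, Gm43029 in Tnpo3 and Gm42783 in the RNA polymerase III subunit gene Polr3c were the 3 pairs above 1.

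**Figure D4:**
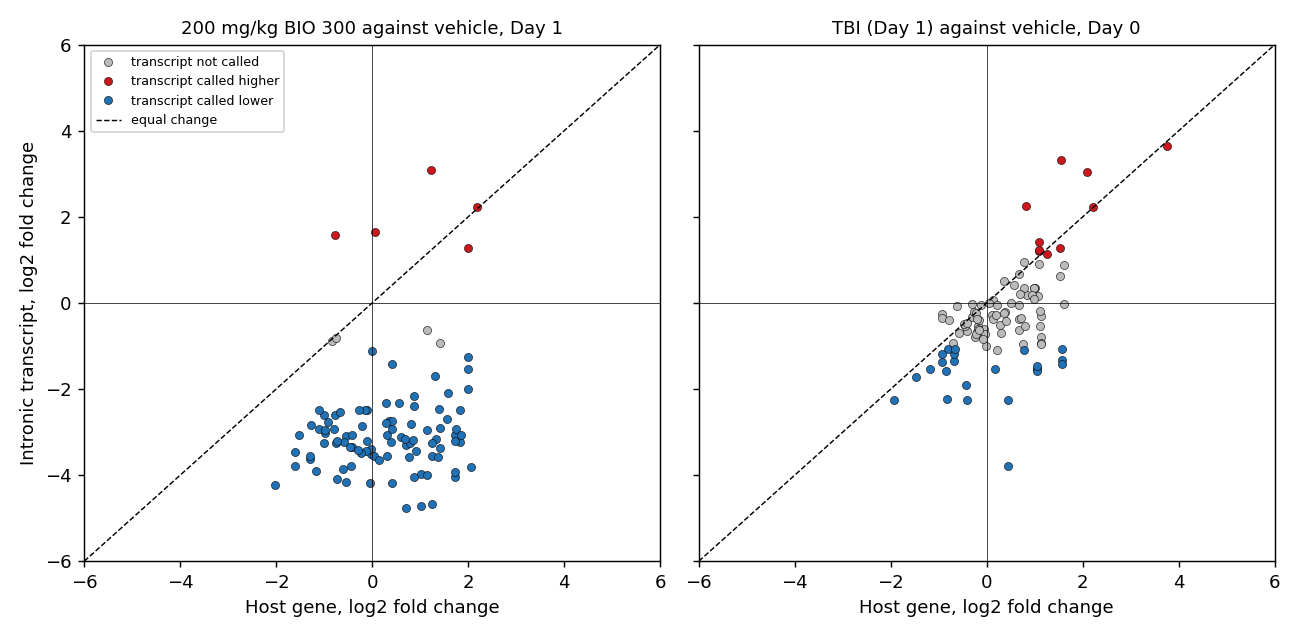
log2 fold change (edgeR, TMM) of 102 intronic transcripts against that of the protein-coding gene around each, at 200 mg/kg on Day 1 (left) and after TBI against Day 0 vehicle (right), with points coloured by the call of the transcript and a dashed line at equal change. On the left 95 points lie more than 1 unit below the line, and on the right 27 do.

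Picalm, Rap1a and Fli1 each held at least 3 members, and they are singled out here after their values were seen. Fli1 encodes an ETS transcription factor of blood cells and megakaryocytes. Its 3 intronic members Gm37082, Gm37474 and Gm38346 had medians of 7.31, 5.99 and 4.94 CPM in Day 1 vehicle mice and 0.55, 0.41 and 0.18 CPM at 200 mg/kg, with no overlap, and all 3 fell, while Fli1 went from 150.3, 166.1 and 181 CPM to 290.6, 403.2 and 419.2 CPM. Fli1 was at 1.24 on the log2 scale with TMM and -0.31 with library totals. Rap1a encodes a small GTPase. Its 4 intronic members Gm43328, Gm43331, Gm43329 and Gm43330 had medians of 4.67, 3.73, 3.23 and 2.75 CPM in Day 1 vehicle mice and 0.25, 0.43, 0.21 and 0.32 CPM at 200 mg/kg. They changed by -4.04, -3.08, -3.92 and -3.20 on the log2 scale, all called, against 1.73 for Rap1a (0.17 with library totals), whose sample ranges were 76.3 to 98.7 CPM and 218.9 to 322.8 CPM.

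The 4 members in Picalm did not move together. Gm45223, Gm45222, Gm45221 and Gm45220 follow each other along chromosome 7 on the plus strand. Their last 60 bases in GENCODE M21 (GRCm38) are shown because they set the single member that was higher at 200 mg/kg beside 3 neighbours that fell. Capitals mark AATAAA or ATTAAA within the last 50 bases. The ends lie at chr7:90137570-90137629, chr7:90150195-90150254, chr7:90188139-90188198 and chr7:90203727-90203786.
Gm45223: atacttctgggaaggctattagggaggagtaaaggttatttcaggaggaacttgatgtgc
Gm45222: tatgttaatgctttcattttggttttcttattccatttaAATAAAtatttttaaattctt
Gm45221: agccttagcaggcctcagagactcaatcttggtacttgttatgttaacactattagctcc
Gm45220: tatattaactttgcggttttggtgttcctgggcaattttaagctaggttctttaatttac

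Gm45223 had 13.7, 16.1 and 18.7 CPM in Day 1 vehicle mice and 2.64, 4.45 and 8.56 CPM at 200 mg/kg. The groups did not overlap, and the log2 fold change was -1.54 ± 0.246 (edgeR adjusted p = 8.66e-05). Gm45222 had 10.7, 13.6 and 15.4 CPM with vehicle and 20.9, 25.6 and 47.7 CPM at 200 mg/kg, again without overlap, with a log2 fold change of 1.27 ± 0.195 (adjusted p = 5.97e-05) that became -0.31 with library totals. Gm45221 and Gm45220 fell by 2.01 and 1.25 on the log2 scale. Picalm rose by 2.00 on the log2 scale with TMM and was at 0.43 with library totals, so Gm45222 changed by 0.73 less than Picalm (-0.73) and the other 3 by 3.54, 4.01 and 3.25 less (-3.54, -4.01 and -3.25). At 100 mg/kg the 4 members changed by -1.79, 1.41, -2.24 and -1.58.

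**Figure D5:**
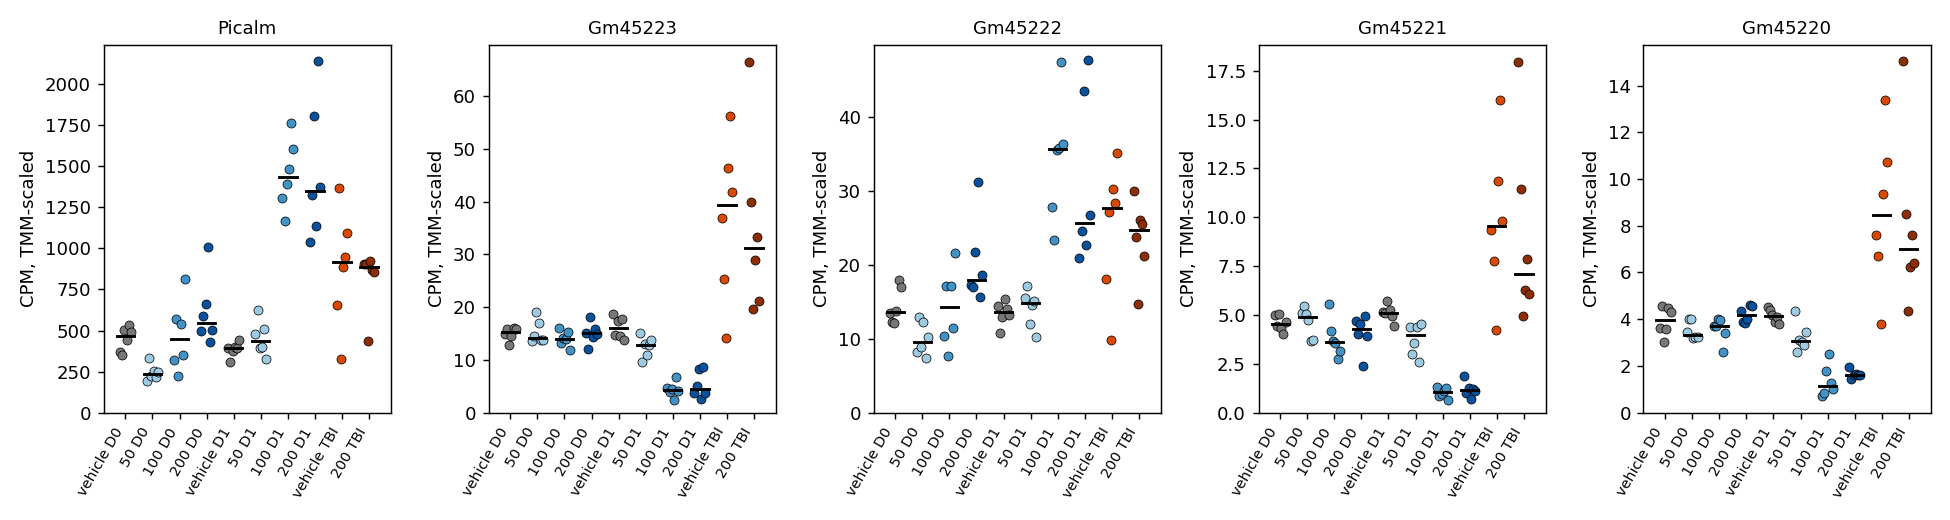
Levels of Picalm and of the 4 transcripts in its introns in each mouse (CPM, TMM-scaled over 60 mice), by group, with bars at group medians (n = 6). Gm45222 is higher than vehicle at 100 and 200 mg/kg on Day 1 with TMM, a rise that is absent when libraries are scaled by totals, while Gm45223, Gm45221 and Gm45220 are lower on both scales.

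The hexamer was no more frequent in the whole set of falling members than in the class. At 200 mg/kg on Day 1 it ended 9 of the 22 members that rose, 37 of the 159 annotated members that fell and 11 of the 16 that were not called. The members that rose had a median GC content of 50% and a median transcript length of 1406 bases, against 41.9% and 2723 bases for those that fell. A run of at least 12 A occurred in none of the first and in 24 of the second. The 16 that were not called had a median GC content of 39.7%, a median length of 3850 bases and such a run in 4. Below are the ends of the 3 members that rose most and of the 3 that fell most, marked as above, in that order. They lie at chr3:37839514-37839573, chr1:176836003-176836062, chr3:61001639-61001698 (minus strand), chr17:51852466-51852525, chr3:157983595-157983654 and chr1:160912560-160912619, on the plus strand where not stated. A hexamer is in 2 of the first 3 and in 1 of the others.
Gm42752: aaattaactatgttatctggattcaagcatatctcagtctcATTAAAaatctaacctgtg
Gm38158: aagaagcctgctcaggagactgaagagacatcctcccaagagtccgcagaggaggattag
Gm37035: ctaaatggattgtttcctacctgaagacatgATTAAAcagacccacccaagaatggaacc
Gm37266: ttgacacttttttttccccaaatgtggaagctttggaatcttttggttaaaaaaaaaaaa
Gm42611: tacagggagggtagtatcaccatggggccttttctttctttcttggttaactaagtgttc
Gm37052: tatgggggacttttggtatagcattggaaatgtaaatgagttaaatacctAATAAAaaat

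The 22 members that rose at 200 mg/kg on Day 1 were led by Gm42752, Gm38158 and Gm37035 on both scales. Gm42752, a TEC locus on chromosome 3 outside protein-coding genes, had 0.79, 2.09 and 4.21 CPM with vehicle and 15.5, 25.9 and 29.7 CPM at 200 mg/kg. The groups did not overlap, with a log2 fold change of 3.53 ± 0.331 (edgeR adjusted p = 4.48e-07) that was 1.94 with library totals. Gm38158 had 11.6, 12.8 and 21 CPM with vehicle and 80.5, 128.2 and 143 CPM at 200 mg/kg. Its log2 fold change was 3.08 ± 0.184 (adjusted p = 1.78e-08), beside 1.23 for Sdccag8 around it (-0.34 with library totals). Gm37035 lies antisense to P2ry1, which encodes a platelet ADP receptor. It had 0.885, 1.27 and 2.04 CPM with vehicle and 7.92, 9.67 and 14.4 CPM at 200 mg/kg, a log2 fold change of 2.97 ± 0.221 (adjusted p = 4.8e-08), and P2ry1 rose by 2.71 on the log2 scale (1.16 with library totals).

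Gm42962, antisense to the thromboxane synthase gene Tbxas1 of platelets, rose by 2.49 on the log2 scale at 200 mg/kg, and Tbxas1 rose by 2.73, which became 0.89 and 1.18 with library totals. Because the strand setting of the counting is not given in the sources used here, reads of such antisense pairs cannot be told apart. Gm43672, a lincRNA, had 3.72, 4.6 and 6.91 CPM with vehicle and 16.9, 23.3 and 29.4 CPM at 200 mg/kg. It rose by 2.29 on the log2 scale (0.73 with library totals). The same 3 members, Gm42752, Gm38158 and Gm37035, were highest at 100 mg/kg, at 3.22, 3.02 and 2.93.

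TBI was compared with both unirradiated vehicle groups. Against Day 1 vehicle, 62 members fell and 30 rose, where 36% of all 25146 genes tested were called, 16.4% lower and 19.6% higher. With library totals the split was 96 lower and 21 higher, where 22.5% of all genes were lower and 12.4% higher. Against Day 0 vehicle, 52 fell and 31 rose, where 26.9% of all genes were called, 11.8% lower and 15.1% higher. The median log2 fold changes of the members were -0.57 and -0.37, against 0.09 and 0.18 over all genes. All 8 neutrophil and all 7 platelet markers were called higher and all 8 B cell and 8 T cell markers lower after TBI against either vehicle group. The summed platelet level was 4444 to 30219 CPM after TBI. This lay above the 2039 to 4131 CPM of Day 1 vehicle mice and overlapped the 2622 to 5216 CPM of Day 0 vehicle mice. The part of these cell types in the changes below was not tested.

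The members that fell most after TBI were the lincRNAs Gm43388 and Gm44175 and the intronic Gm37943. Gm43388 (chromosome 16) had 5.88, 8.55 and 9.42 CPM in Day 0 vehicle mice, 6.85, 8.25 and 11.4 CPM in Day 1 vehicle mice and 0.134, 0.242 and 0.52 CPM after TBI. No irradiated mouse reached an unirradiated vehicle mouse, and the log2 fold changes were -4.63 ± 0.337 and -4.84 ± 0.326 (edgeR adjusted p = 5.09e-06 and 1.65e-06). Gm44175 (chromosome 6) had 2.32, 5.32 and 7.6 CPM in Day 0 vehicle mice and 0.059, 0.238 and 0.4 CPM after TBI, a log2 fold change of -4.48 ± 0.489 (adjusted p = 5.36e-05). Gm37943 fell by 3.79 on the log2 scale against Day 0 vehicle, while Ralgps2 around it was at 0.44 ± 0.299 (adjusted p = 0.279).

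The members that rose most after TBI included Gm37347, Gm43181 and Gm44292, each in an intron of a gene that rose too. Gm37347 lies in Il1r2, which encodes the decoy interleukin-1 receptor of neutrophils and other cells. It had 0.565, 0.822 and 1.05 CPM in Day 0 vehicle mice and 3.66, 10.8 and 14.3 CPM after TBI, a log2 fold change of 3.66 ± 0.355 (adjusted p = 2.85e-05), beside 3.75 for Il1r2. Gm43181 in Fbxl5, which encodes an iron-sensing ubiquitin ligase subunit, changed by 3.31 ± 0.421 beside 1.54 for Fbxl5, and Gm44292 in Mxd1 by 3.03 ± 0.407 beside 2.08 for Mxd1. For Gm44292 the values were 3.83, 6.45 and 7.46 CPM in Day 0 vehicle mice and 12.9, 50.7 and 81 CPM after TBI, without overlap. The lincRNA Gm42047, of whose runs of 50 bases 72.9% occur elsewhere, rose by 3.37 on the log2 scale against Day 1 vehicle.

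The intronic members were set beside the genes around them after TBI as well. Against Day 0 vehicle, 23 of the 102 fell and 10 rose with TMM. Of those 10, 9 lay in genes that rose, including Picalm and Xylt1, which were not called with library totals. The median difference between member and surrounding gene was -0.50, and 27 pairs lay below -1. Of the 23 that fell, 20 lay in genes not called lower with TMM, 6 of them in genes that rose. The other 3 fell together with their genes. They were the members in the lymphocyte transcription factor genes Foxo1 and Satb1 (Gm38034 at -2.26 and Gm37248 at -1.72, genes at -1.93 and -1.47) and Gm37010 in Cd48 (-1.54, gene at -1.17). The 3 members in Fli1 fell by 1.53, 1.59 and 1.47 on the log2 scale while Fli1 rose by 1.04 (0.72 with library totals, not called).

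The comparison of TBI with Day 0 vehicle shares no mice with the comparison of 200 mg/kg with Day 1 vehicle, so their calls can be set side by side. All 52 members lower after TBI were among the 161 lower at 200 mg/kg, which is 32.3% of the latter. These shares are read against the 80.5% of all members that were lower at 200 mg/kg, and over all genes tested in both comparisons 72.5% of those lower after TBI were lower at 200 mg/kg. Of the 31 higher after TBI, 16 were among the 22 that rose at 200 mg/kg (51.6% and 72.7%), a share that was 51.1% and 44.8% over all genes, and 14 were among those that fell there (45.2%, against 13.6% over all genes). These 14 include Gm45223, Gm45221 and Gm45220 in Picalm, Gm44292 in Mxd1, Gm45266 in Rab11fip1, Gm45153 in Xylt1 and Gm37347 in Il1r2. The genes around them rose after TBI with TMM. With library totals Picalm and Xylt1 were at 0.78 and 0.98 on the log2 scale and were not called. Gm44292 was at -3.16 and 3.03 in the 2 comparisons and Mxd1 at 1.33 and 2.08 (-0.20 and 1.84 with library totals).

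In the remaining comparisons few or no members were called. At 50 mg/kg on Day 0, 6 fell and none rose, where 4.5% of all 24485 genes were called, 4.38% lower and 0.127% higher, and the medians were 0.17 over the members and 0.03 over all genes. The 6 were Gm38158, Gm43029, Gm42962, Gm48249, Gm45403 and Gm37799, named in full because they are few, and all 6 were among the 22 that rose at 200 mg/kg on Day 1, in other mice. Over all genes 85.4% of those lower at 50 mg/kg on Day 0 were higher there. Gm43029 had 9.83, 15.4 and 22.3 CPM with vehicle and 4.38, 4.86 and 9.36 CPM at 50 mg/kg, without overlap, and fell by 1.43 ± 0.238 on the log2 scale (edgeR adjusted p = 0.0027). With library totals none of the 6 was called and 22 other members were called higher, where 10.5% of all genes were called higher. Of 7 platelet markers 5 were lower in the same comparison, with a summed level of 1262 to 2851 CPM against 2622 to 5216 CPM. Of 4 red cell markers 1 was called lower, with a summed level of 20566 to 79467 CPM (median 28150) against 52286 to 111940 CPM (median 91739), and 4 of 8 adipocyte markers were lower too. Their part was not tested.

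At 100 and 200 mg/kg on Day 0, at 50 mg/kg on Day 1, between the vehicle days and between the irradiated groups, edgeR called 0 members and 0% of all genes. At an unadjusted p under 0.05 there were 4, 10, 74, 14 and 0 members, or 2%, 5%, 37%, 7% and 0% of the 200, where 3.03%, 9.02%, 18.5%, 12.3% and 2.76% of all genes tested passed the same threshold. DESeq2 called 0, 0, 1, 0 and 0 members and 2, 2, 39, 37 and 0 genes in all. At 50 mg/kg on Day 1 the median log2 fold change was -0.22 over the members and -0.04 over all genes. Gm42752, at 1.15 ± 0.291 (edgeR adjusted p = 0.101), was the member DESeq2 called. Between the irradiated groups Gm45223 had 14.2, 39.3 and 56.2 CPM with vehicle and 19.7, 31.2 and 66.5 CPM with 200 mg/kg BIO 300, which overlap throughout.

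Whether the effect of a dose differed between days, and the effect of 200 mg/kg between irradiated and unirradiated mice, was tested with interaction terms. The effect of 200 mg/kg was lower on Day 1 than on Day 0 for 161 members and higher for 20, where 36.7% of all genes were called, 23.6% lower and 13.1% higher. That of 100 mg/kg was lower for 160 and higher for 21, where 42% were called, 26.3% lower and 15.7% higher. At 50 mg/kg, 2 were lower and 12 higher, where 7.69% of all genes were called, 0.961% lower and 6.73% higher, and with library totals 161 were lower and 2 higher, where 38.7% of all genes were lower and 1.5% higher. The effect of 200 mg/kg on Day 1 was higher in irradiated than in unirradiated mice for 161 members and lower for 18, where 29.6% of all genes were called, 19.5% higher and 10% lower, with medians of 2.88 over the members and 0.60 over all genes.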

How the data were processed

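Members and gene lists were chosen with earlier results of these data known. The deposited counts are unnormalized whole numbers per gene, made by the authors, whose processing notes name Trimmomatic 0.36, STAR 2.5.2b, Subread 1.5.2 and GRCm38. The annotation release and strand setting are not given in the sources used here. The deposited signal columns, counts divided by the authors' size factors, only served to check column names, and the authors' fold changes and p-values were not used. Each comparison was fitted on its own mice with edgeR 4.0.16 (limma 3.58.1, R 4.3.3) on genes with at least 10 summed counts, TMM, Benjamini-Hochberg adjustment over all genes tested, adjusted p under 0.05 and absolute log2 fold change over 1. Interactions used 4 groups. SE is the fold change over the root of F. Alternatives were library totals, DESeq2 1.42.0, no filter, filterByExpr, each mouse left out, and leaving out the 10 libraries with hepatocyte transcripts. Levels are CPM with TMM factors over 60 mice. Pair ratios added 0.5 counts. Positions, transcripts and lengths come from GENCODE M21 (GRCm38), in which 99.5% of gene identifiers were found. Named members are the 12 with the highest mean CPM and, per comparison, up to 3 highest and 3 lowest called on both scales without overlap and with at least 1 CPM (at 50 mg/kg on Day 0, TMM alone). Both tools were tested on simulated counts in which a small part of the genes was changed by known folds in both directions. Most genes were unchanged there, so that test cannot bear on the scaling between libraries. Per the methods 3 mice shared a cage, and which mice did is not given in the sources used here, so p-values measure the spread between these mice. Of the 12 members with the highest mean CPM, 1 is not reported here.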

Additional observations from a re-analysis of the deposited data

Results flagged for a closer look

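Some mice stood apart from the other 5 of their group by the gap to the nearest value, a criterion that chance meets in about 1 in 20 groups, over 30 sets of 6 mice. For the share of all counts on the 200 transcripts these were mouse 39 at 100 mg/kg on Day 1, the lowest at 0.0261%, and mouse 55 among irradiated mice given 200 mg/kg, the highest at 0.169%. For the median ratio of intronic transcripts to the genes around them it was mouse 30 of the Day 1 vehicle group, the lowest at 11.9%.

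Effects that differed between days or with irradiation by an interaction term were counted for 14 members at 50 mg/kg, 181 at 100 mg/kg and 181 at 200 mg/kg between Day 1 and Day 0, and for 179 members at 200 mg/kg between irradiated and unirradiated mice on Day 1. Over all genes tested, 7.69%, 42%, 36.7% and 29.6% were called for the same terms, in that order.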

How the results depend on the processing

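At 50 mg/kg on Day 0 the 6 members called became 22 with library totals, all higher, and 3 without the libraries with hepatocyte transcripts. Over all genes 4.5% were called with TMM, and with library totals 10.5% were higher and 1.25% lower. Leaving out 1 mouse gave 3 (without mouse 1) to 10 (without mouse 2). At 50 mg/kg on Day 1, DESeq2 called 1 member, and leaving out mouse 27 gave 1, so that single omissions ranged from 0 to 1. The 50 mg/kg interaction moved from 14 to 163 with library totals, and to between 12 and 19 with 1 mouse left out. Over all genes 7.69% were called for it with TMM, and with library totals 38.7% were lower and 1.5% higher. The cause was not tested. Single omissions on Day 1 gave 184 in each fit for dose 100 and 181 to 185 for dose 200, 84 to 100 after TBI against Day 1 vehicle and 72 to 90 against Day 0 vehicle, and 0 in the remaining comparisons between pairs of groups. With all mice kept, 48.8% and 47.8% of all genes were called for these doses, and 36% and 26.9% after TBI. For the interactions single omissions gave 178 to 183 (dose 100), 178 to 182 (dose 200) and 173 to 182 (irradiation). There 42%, 36.7% and 29.6% of all genes were called with all mice kept. No paired analysis was possible because every mouse has a number of its own. Members with few counts have wide errors at 100 and 200 mg/kg on Day 1, where 136 and 137 of the 200 had group means under 1 CPM.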

Other observations

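The 3 genes of the same name pattern that were left out did not behave alike. Gm42418, at 1.21% to 11% of all counts, had 14872, 16109 and 21197 CPM in Day 1 vehicle mice and 57771 to 197430 CPM with a median of 83507 CPM at 200 mg/kg on Day 1, without overlap (log2 fold change 2.61 ± 0.458, edgeR adjusted p = 0.000199). These values used TMM, which widens the gap between these groups. As a share of all counts Gm42418 took 1.73% to 3.18% in Day 1 vehicle mice and 3.19% to 11% at 200 mg/kg, ranges that nearly met. Gm42870 went from 30.1, 35.8 and 44.7 CPM to 0.65, 2.12 and 5.18 CPM and fell by 3.71 on the log2 scale, and after TBI it had 0.4, 1.63 and 2.32 CPM. Gm43197 fell by 3.03 at 200 mg/kg, and after TBI it had 14.1, 38.2 and 56.6 CPM against 15.5, 20.7 and 25.7 CPM in Day 1 vehicle mice, which overlap.

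Long-known noncoding RNAs of the nucleus were called in both directions with TMM at 200 mg/kg on Day 1. Of 14 tested, 7 fell and 2 rose, with a median log2 fold change of -1.27, where 30.5% of all genes tested were lower and 17.3% higher. Neat1, the scaffold of paraspeckles, fell by 1.29, Kcnq1ot1, an imprinted antisense RNA, by 1.25, and Rn7sk, which binds the elongation factor P-TEFb, by 2.27. Malat1, of nuclear speckles, was at -0.70 ± 0.19 and did not pass the fold threshold. Pvt1 rose by 1.36. With library totals these values were -2.78 for Neat1, -2.81 for Kcnq1ot1, -3.86 for Rn7sk, -2.25 for Malat1 and -0.23 for Pvt1. After TBI against Day 1 vehicle, Neat1 rose by 1.05 and Kcnq1ot1 fell by 1.31.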
